A study of Mus musculus with 24 samples.

Results

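Haematopoietic stem cells (HSC) of mice labelled KO were compared with the progenitor population labelled MPP1 of mice with the same label, in 3 RNA-seq libraries of each. These 6 libraries are the members, chosen by their column names, out of 24 libraries in the series. The whole set has 2 genotypes, WT and KO, and 4 populations (HSC, MPP1, MPP2 and MPP4) sorted from bone marrow, although the tissue label reads blood, and tamoxifen is given as the treatment of every sample, WT included. The same step in WT animals, 3 libraries of MPP1 against 3 of HSC, was used for comparison and shares no library with the KO step. The labels give neither the deleted gene, the allele, a Cre driver, the strain, the age nor the sorting gates. Nothing in them tells separate mice from repeated libraries of 1 mouse, so the spread behind each p-value may be partly technical.

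Stem cells at the top of blood formation are mostly quiescent and can give rise to every lineage. Multipotent progenitors arise from them by losing stem cell surface proteins such as Slamf1 (CD150), gaining others such as Cd48 and the cytokine receptor Flt3, dividing more often, and starting at low level to express genes of the lineages they can still make. MPP1 is in most published schemes the first population after the stem cell. The series title concerns P-bodies, which are cytoplasmic granules holding untranslated RNA. Ddx6, the RNA helicase at the core of P-bodies, is taken here from outside the labels as the gene of interest. Its RNA read 67.6, 93.6 and 66.97 CPM (counts per 1000000 of the scaled total) in the 3 KO HSC libraries and 99.9, 88.4 and 79.8 CPM in KO MPP1, against 67.1, 55.2 and 64.003 CPM in WT HSC and 69.1, 43.9 and 62.996 CPM in WT MPP1. It was not lower in the KO-labelled libraries, so the level of this RNA does not check the genotype label, and "KO" below stands for that label. The Ddx6 level did not pass the test within the KO step (log2 fold change 0.23, SE 0.18, adjusted p = 0.409).

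From KO HSC to KO MPP1, stem cell and megakaryocyte genes fell, lymphoid genes rose, and S phase and mitosis genes fell. Flt3 rose 18.6-fold and Ighm 11.2-fold, whereas Slamf1 and Vwf fell, with log2 fold changes (log2 of the MPP1 level over the HSC level) of -5.76 and -3.62. The step in WT shared the rises of Flt3 and Ighm and the falls of Slamf1 and Vwf. It differed from KO in the granule gene Mpo, the globin gene Hbb-bs, the red cell factor Gata1 and some mitosis genes, Mki67 among them. These rose in WT and were flat or fell in KO. In bulk samples, fewer cells of a type and less RNA per cell cannot be told apart.

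Depth was similar in both KO groups, 3360835 to 3667509 counts per library in HSC and 3095384 to 3584413 in MPP1. The groups differed in background. Reads assigned to olfactory and vomeronasal receptor genes, which blood cells are not known to use, were scaled by gene span to estimate how many reads per gene arise from other than its mature transcripts. This estimate was 5.63 ± 0.19% of the counts in KO HSC and 13.96 ± 0.29% in KO MPP1 (mean ± SD, n = 3), against 22.7 ± 1.66% in WT HSC and 24.4 ± 0.90% in WT MPP1. The median log2 fold change of the KO step was 0.97 over the 9448 genes with a mean below 8 CPM and -0.22 over the 3821 genes above 64 CPM, against -0.02 and -0.01 in the WT step. Calls were therefore also made after this background was subtracted, which is written below as "after subtraction".

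Of 21964 genes tested with edgeR's quasi-likelihood test (called at a Benjamini-Hochberg adjusted p below 0.05), 2757 (12.6%) were higher and 1646 (7.49%) lower in KO MPP1 than in KO HSC. After subtraction, 495 (2.68%) were higher and 490 (2.66%) lower among 18441 genes, so the share of calls that were rises went from 62.6 to 50.3%. Of all calls of the KO step, 912 held in the same direction after subtraction and 0 in the opposite one. The WT step called 433 (1.97%) higher and 402 (1.83%) lower, and 500 (2.71%) and 319 (1.73%) after subtraction. The difference between the steps, tested as the interaction of genotype and population, was more positive in KO for 1351 genes (6.15%) and more negative for 860 (3.92%). After subtraction these were 210 (1.14%) and 352 (1.91%), and the share of positive calls went from 61.1 to 37.4%.

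The calls of the WT step were looked up in KO. Of the 402 genes that fell in WT, 258 (64.2%) also fell in KO, 6 rose and 138 were not called. Of the 433 that rose in WT, 111 (25.6%) also rose in KO, 99 fell and 223 were not called. All 99 had an interaction call, which called steps of opposite sign from the same fit make nearly certain. These shared calls were 15.7% of the KO falls and 4.03% of the KO rises. The 258 shared falls had a median log2 fold change of -0.83 in KO and -0.73 in WT, and the 111 shared rises a median of 1.54 in KO and 0.98 in WT. After subtraction, 117 of 319 WT falls (36.7%) and 115 of 500 WT rises (23%) were called the same way in KO, and 2 and 55 in the opposite direction. The median log2 fold change in KO of the genes that rose in WT was -0.05, and 0.09 after subtraction. Whether WT falls and WT rises differ in the share found in KO was not tested.

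**Figure D1:**
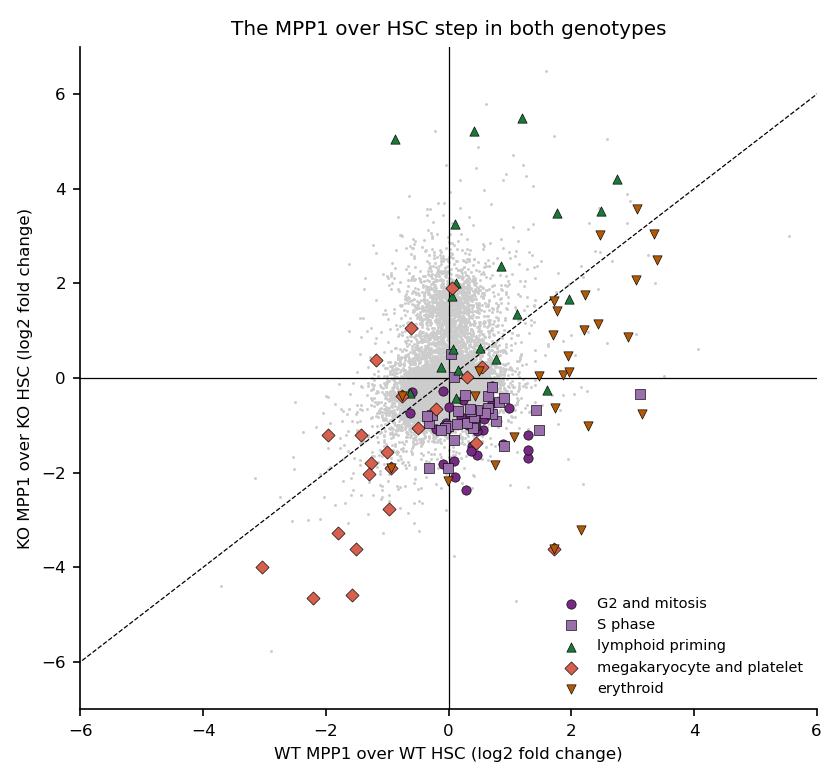
The plot sets the log2 fold change of MPP1 over HSC in WT (x axis) against that in KO (y axis), with genes of at least 20 CPM in a group in grey and all tested members of 5 gene lists in colour. Equal steps lie on the dashed line. The median KO step was 1.70 for lymphoid, -0.79 for S phase, -1.02 for mitosis and -1.47 for megakaryocyte genes.

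Genes for the surface proteins that separate stem cells from progenitors were looked at first, as a check of the labels. Slamf1, the CD150 receptor that marks stem cells, read 284, 222 and 249 CPM in KO HSC and 7.69, 3.16 and 3.22 CPM in KO MPP1. Every HSC library was far above every MPP1 library (log2 fold change -5.76, SE 0.43, adjusted p = 2.91e-14). In WT it read 75.4, 74.01 and 68.9 CPM in HSC and 3.82, 20.2 and 5.04 CPM in MPP1, a smaller fall (interaction -2.87, SE 0.56, adjusted p = 3.65e-04, and 0.217 after subtraction). Flt3, the receptor for a cytokine that supports lymphoid and myeloid progenitors, read 30.7, 33.8 and 28.7 CPM in KO HSC and 581.98, 548 and 603 CPM in KO MPP1 (log2 fold change 4.22, SE 0.13, adjusted p = 1.17e-26). The groups were far apart, and the rise was larger than in WT, where Flt3 went from 70.7, 53.6 and 65.7 to 446, 419 and 407 CPM (interaction 1.47, SE 0.17, adjusted p = 3.05e-08, and 2.26e-05 after subtraction). Cd34, a sialomucin gained by early progenitors, rose from 40.1, 17.2 and 32.9 to 96.3, 85.3 and 79.5 CPM (log2 fold change 1.53, SE 0.20, adjusted p = 1.37e-07), and Cd48, a ligand of the CD2 family gained on leaving the stem cell state, from 0.348, 1.35 and 1.26 to 6.02, 8.32 and 4.38 CPM (log2 fold change 2.60, SE 0.50, adjusted p = 1.16e-04). Neither pair of groups overlapped, and the interaction was not called for Cd34 (adjusted p = 0.637) or Cd48 (adjusted p = 0.201). Absence of overlap, here and below, only describes the libraries of a gene. The share of all genes without overlap is not given, so it is not read as a result.

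Kit, the stem cell factor receptor, stayed high, at 1243, 1153 and 1162 CPM in KO HSC and 839, 913 and 874 CPM in KO MPP1. Its fall (log2 fold change -0.44, SE 0.08, adjusted p = 2.52e-05) was not called after subtraction (adjusted p = 0.198). Ly6a (Sca-1) rose by 0.63 on the log2 scale (adjusted p = 0.0435), a call lost when any 1 of the 6 KO libraries was left out (adjusted p = 0.0556 to 0.145). Procr, the endothelial protein C receptor of stem cells, did not pass the test (log2 fold change -0.03, SE 0.37, adjusted p = 0.974). Cd9 and Itga2b (CD41), membrane proteins shared by stem cells and megakaryocytes, fell, with log2 fold changes of -1.81 and -2.77. In all, 4 of 9 tested sorting genes rose and 4 fell in KO, and the 3 that rose and 3 that fell in WT were called the same way in KO. MPP1 cells are usually gated as lacking Flt3 protein and keeping Slamf1 protein. Neither the high Flt3 RNA nor the low Slamf1 RNA of the libraries labelled MPP1 follows that scheme, in KO or in WT. In KO the Flt3 level was 578 ± 27.9 CPM in MPP1, 543 ± 73.7 CPM in the libraries labelled MPP2 and 84.5 ± 8.12 CPM in those labelled MPP4 (mean ± SD, n = 3). MPP4 is the population usually defined by Flt3. The libraries are called here by their labels.

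**Figure D2:**
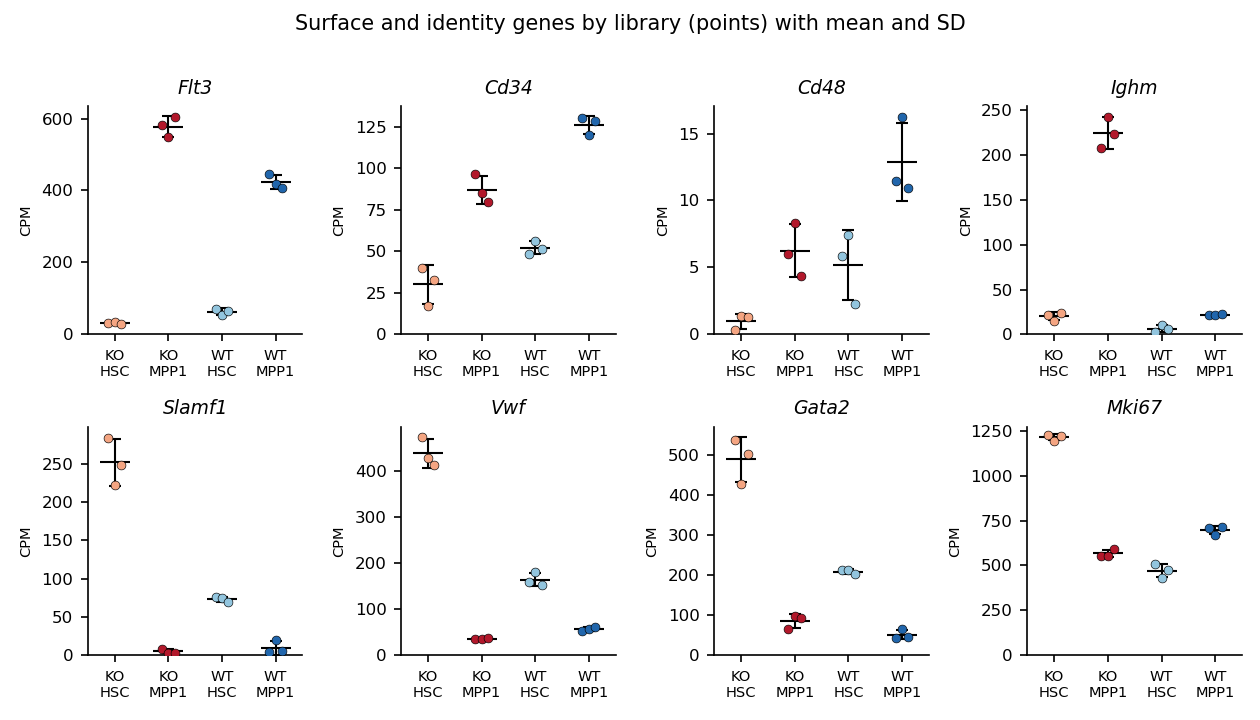
Each panel plots the level of 1 gene in CPM (y axis, from 0) in the 3 libraries of KO HSC, KO MPP1, WT HSC and WT MPP1, as points with the mean and SD. Flt3, Cd34, Cd48 and Ighm are higher in MPP1 and Slamf1, Vwf and Gata2 lower in MPP1 in both genotypes, whereas Mki67 is lower in KO MPP1 and higher in WT MPP1 than in HSC.

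Stem cell identity genes fell in the KO step. Among surface and niche genes 16 of 32 tested fell and 4 rose in KO (median log2 fold change -0.95, against 0.15 over all genes), and after subtraction 9 fell and 3 rose. Of the 16 that fell in WT, 12 fell in KO and 4 were not called. Vwf, the clotting factor that marks platelet-biased stem cells, read 475, 428 and 414 CPM in KO HSC and 34.4, 35.9 and 36.5 CPM in KO MPP1, with no overlap (log2 fold change -3.62, SE 0.19, adjusted p = 2.19e-19). Its WT fall, from 158, 179.6 and 153 to 53.2, 56.7 and 61.6 CPM, was smaller (interaction -2.11, SE 0.25, adjusted p = 2.75e-08). Eng, a co-receptor for TGF-beta, fell in both (log2 fold change -0.98 and -0.69, interaction -0.29, SE 0.16, adjusted p = 0.283). Tek, the angiopoietin receptor, read 98.96, 107 and 78.7 CPM in KO HSC and 17.05, 12.1 and 21.9 CPM in KO MPP1, where background made up 88.5% of its counts, and its fall held after subtraction (adjusted p = 5.75e-04). Tgfbr3, the TGF-beta co-receptor betaglycan, fell with log2 fold changes of -2.87 in KO and -1.32 in WT (interaction -1.55, SE 0.17, adjusted p = 4.07e-09). Against the list, Cd34 and Ly6a rose as above, Alcam, an adhesion molecule, rose by 1.116 in KO and 0.88 in WT on the log2 scale. Cdh5, the cadherin of endothelium, had at most 1 count in any KO HSC library and read 9.36, 6.89 and 16.7 CPM in KO MPP1, which was not called after subtraction (adjusted p = 0.092).

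Among stem cell transcription factors 14 of 25 fell and 3 rose in KO (median -0.59), and 11 and 3 after subtraction, against 8 and 0 in WT. Of the 8 WT falls, 7 were found in KO. Gata2, which maintains stem cells, read 536, 427 and 503 CPM in KO HSC and 64.5, 98.2 and 92.95 CPM in KO MPP1 (log2 fold change -2.52, SE 0.17, adjusted p = 1.67e-15). All 3 HSC libraries were above all MPP1 libraries, and the interaction with the WT fall (log2 fold change -2.03) was not called (-0.49, SE 0.24, adjusted p = 0.199). Runx1, needed for blood stem cells to form and for platelet and lymphoid development, fell from 3679, 3923 and 3996 to 1478, 1479 and 1598 CPM (log2 fold change -1.35, SE 0.05, adjusted p = 6.74e-24). In WT its log2 fold change was -0.18 (interaction -1.17, SE 0.07, adjusted p = 3.70e-16).

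Other factors also stepped down further in KO. Mecom (Evi1), a stem cell regulator, read 5296, 5205 and 5528 CPM in KO HSC and 3180, 2997 and 2876 CPM in KO MPP1 (log2 fold change -0.82, SE 0.06, adjusted p = 2.10e-14); its log2 fold change in WT was 0.13 (interaction -0.95, SE 0.08, adjusted p = 2.63e-11). Meis1, a Hox cofactor, had log2 fold changes of -0.95 in KO and -0.22 in WT (interaction -0.73, SE 0.09, adjusted p = 6.46e-08). Fli1, an Ets factor of stem cells and megakaryocytes, had -1.05 and -0.51 on the same scale (interaction -0.54, SE 0.09, adjusted p = 3.14e-05). Tal1 and Lmo2, partners in a complex that also holds Gata factors, fell in KO with log2 fold changes of -1.56 and -2.08. Their values of -0.34 and 0.10 in WT were not called. The interaction was called for both (adjusted p = 0.00234 and 1.38e-04), and after subtraction for Lmo2 alone (adjusted p = 0.0693 and 0.00987). Against most of the list, Hlf, a factor expressed mainly in stem cells, rose slightly. It read 1812, 1984 and 1854 CPM in KO HSC and 2265, 2309 and 2217 CPM in KO MPP1 (log2 fold change 0.27, SE 0.06, adjusted p = 0.0012), and its log2 fold change in WT was 0.19 (adjusted p = 0.0653). Gata3, which acts in stem cells and in T cell development, rose by 1.53 on the log2 scale (adjusted p = 2.68e-05) in KO, with -0.77 (adjusted p = 0.122) in WT and an interaction of 2.30 (SE 0.38, adjusted p = 2.66e-05). Hoxa9, a homeobox factor of stem cells, read 50.9, 22.6 and 24.3 CPM in KO HSC and 62.5, 68.6 and 72.8 CPM in KO MPP1 (log2 fold change 1.06, SE 0.33, adjusted p = 0.0182, and 0.0509 after subtraction). KO HSC replicate 1 was the highest of its group, and the call was lost without KO HSC replicate 2, KO HSC replicate 3 or KO MPP1 replicate 3 (adjusted p = 0.0616 to 0.116).

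The lymphoid list had the largest share of rises in KO. Of 20 tested genes of lymphoid-primed progenitors 12 rose and 0 fell in KO (median 1.70), and 11 of 19 rose after subtraction, against 6 and 0 in WT. All 6 of the WT rises were found in KO, and the interaction was positive for 9 genes and negative for 1, Ikzf1. Their summed level was 1463 to 1515 CPM in KO HSC and 3120 to 3259 CPM in KO MPP1, against 1095 to 1162 and 1947 to 2105 CPM in WT. Dntt, the polymerase that adds bases at antigen receptor joints, read 6.27, 1.69 and 0.316 CPM in KO HSC and 145, 102 and 122 CPM in KO MPP1 (log2 fold change 5.50, SE 0.30, adjusted p = 2.02e-18). All 3 HSC libraries were near 0 and all MPP1 libraries above 100, and the WT change from 13.3, 9.81 and 10.001 to 33.2, 23.1 and 19.9 CPM was smaller (interaction 4.30, SE 0.42, adjusted p = 3.47e-10). Ighm, the heavy chain of IgM, whose locus is transcribed in lymphoid-primed cells, read 21.6, 14.9 and 23.4 CPM in KO HSC and 208, 243 and 224 CPM in KO MPP1 (log2 fold change 3.49, SE 0.14, adjusted p = 1.21e-23). It did not overlap between groups in either genotype and rose in WT from 2.77, 10.1 and 6.29 to 21.8, 21.96 and 22.4 CPM (interaction 1.72, SE 0.24, adjusted p = 1.54e-06, and 0.00133 after subtraction), which limma-voom did not call (adjusted p = 0.794). Satb1, a chromatin organiser of lymphoid cells, rose from 10.1, 19.6 and 10.1 to 172, 146 and 144 CPM in KO and from 19.9, 26.8 and 23.4 to 114, 138 and 141 CPM in WT (log2 fold change 3.53 and 2.48). Its interaction was called as deposited (adjusted p = 0.00345) and not after subtraction (adjusted p = 0.766).

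Other lymphoid genes rose in KO without a call in WT. Il7r, the interleukin 7 receptor chain, had at most 7 counts in any KO HSC library, at 0, 1.01 and 2.21 CPM, and read 37.4, 47.4 and 43.6 CPM in KO MPP1 (log2 fold change 5.23, SE 0.46, adjusted p = 6.52e-12). In WT it stayed between 1.71 and 5.88 CPM in all 6 libraries. The interaction was called (adjusted p = 1.27e-06), but not after subtraction (adjusted p = 0.946). Blnk, the adaptor of the B cell receptor, read 3.48, 7.43 and 10.7 CPM in KO HSC and 59.8, 66.6 and 84.8 CPM in KO MPP1 (log2 fold change 3.27, SE 0.28, adjusted p = 1.70e-12), and 16.98 to 25.5 CPM in the 6 WT libraries (interaction 3.16, SE 0.37, adjusted p = 3.43e-08). Ikzf3 (Aiolos), an Ikaros family factor of lymphoid cells, read 1.74, 0.676 and 0.316 CPM in KO HSC, where background accounted for all its counts, and 31.1, 35.9 and 26.01 CPM in KO MPP1 (log2 fold change 5.06, SE 0.50, adjusted p = 1.60e-10). In WT it went from 22.7, 17.8 and 24.6 to 14.1, 9.41 and 12.04 CPM, which was not called (interaction 5.93, SE 0.63, adjusted p = 2.67e-09). Notch1, the receptor that directs T cell fate, rose from 56.4, 56.8 and 33.2 to 198, 148 and 138 CPM in KO (log2 fold change 1.72, SE 0.18, adjusted p = 7.82e-10) and was not called in WT (log2 fold change 0.05, adjusted p = 0.988). Its interaction was 1.67 (SE 0.25, adjusted p = 5.79e-06). Ikzf1, founding member of the Ikaros family, rose by 0.41 in KO and by 0.77 in WT on the log2 scale, and its negative interaction was not called after subtraction (adjusted p = 0.424).

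Cytokine receptors and immunoglobulin segments were among the 12 largest rises of at least 20 CPM that held after subtraction. That the KO groups did not overlap was a further condition of this choice. These 12 were Il1rl1, Il2ra, Dntt, Ighv7-1, Il7r, Il10ra, Ikzf3, Igkv15-103, Stab2, Itgb5, Rnf128 and Kcng1. Il1rl1, the interleukin 33 receptor of mast cells and innate lymphoid cells, read 0.697, 2.70 and 2.53 CPM in KO HSC and 185, 189 and 175 CPM in KO MPP1 (log2 fold change 6.49, SE 0.31, adjusted p = 9.20e-21). In WT it went from 5.82, 15.7 and 11.1 to 32.3, 25.1 and 41.2 CPM (interaction adjusted p = 5.85e-12). Il2ra (CD25), the high-affinity chain of the interleukin 2 receptor, read 1.39, 1.01 and 2.21 CPM in KO HSC and 93.9, 86.4 and 86.5 CPM in KO MPP1 (log2 fold change 5.81, SE 0.44, adjusted p = 7.59e-14). Il10ra, a chain of the interleukin 10 receptor, read 4.18, 2.03 and 0 CPM in KO HSC and 77.9, 72.9 and 62.3 CPM in KO MPP1 (log2 fold change 5.11, SE 0.49, adjusted p = 5.19e-11). For all 3 receptors the KO groups were far apart. In WT MPP1, Il2ra read 10.6, 16.8 and 19.9 CPM and Il10ra 32.6, 41.6 and 30.5 CPM, and the interaction was called for both (adjusted p = 7.18e-09 and 1.76e-04), after subtraction with adjusted p = 0.0058 and 0.0166.

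Ighv7-1, a heavy chain V segment, read 3.83, 3.38 and 4.42 CPM in KO HSC and 137, 167 and 139 CPM in KO MPP1 (log2 fold change 5.23, SE 0.22, adjusted p = 1.18e-22), and 0 to 2.49 CPM in the 6 WT libraries. Among 80 tested V segments 5 rose and 0 fell in KO (median log2 fold change 0), and 4 and 0 of 77 after subtraction. Over all genes 12.6% rose as deposited and 2.68% after subtraction, so as deposited V segments rose less often than genes at large. Igkv15-103, a light chain V segment, read 0, 2.03 and 0.632 CPM in KO HSC and 34.4, 27.3 and 30.98 CPM in KO MPP1. V segments are near-identical to one another, and how reads shared between them were counted is not given in the sources used here, so which segment rose is uncertain. Itgb5, an integrin chain, read 5.58, 5.74 and 7.27 CPM in KO HSC and 150.4, 169 and 175 CPM in KO MPP1. Rnf128, a ubiquitin ligase of T cells, read 2.09, 7.77 and 2.53 CPM in KO HSC and 98.9, 95.9 and 89.2 CPM in KO MPP1. In WT MPP1 these genes read 85.6, 75.8 and 72.2 and 13.2, 21.7 and 10.4 CPM. Kcng1, a potassium channel subunit, read 0.697, 0 and 2.53 CPM in KO HSC and 26.4, 30.7 and 20.8 CPM in KO MPP1. Stab2, a scavenger receptor of sinusoids, read 3.83, 4.05 and 1.90 CPM in KO HSC and 65.5, 123 and 102 CPM in KO MPP1, with 18.8% background in the latter. Its interaction (adjusted p = 7.63e-08) was not called after subtraction (adjusted p = 0.1246).

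**Figure D3:**
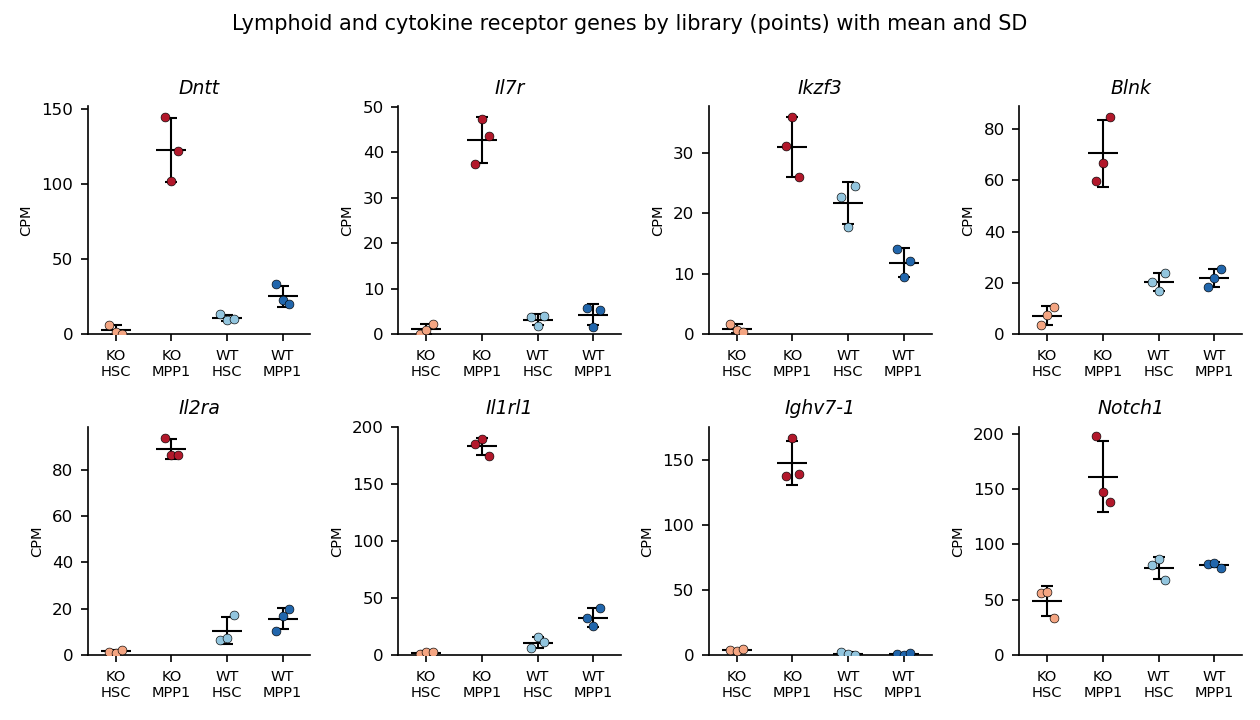
Each panel plots the level of 1 gene in CPM (y axis, from 0) in the 3 libraries of KO HSC, KO MPP1, WT HSC and WT MPP1 (x axis), as points with the mean and SD. In each of the 8 panels the 3 KO MPP1 libraries are the highest of the 12.

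Markers of mature lymphoid cells were compared as lists. Over all genes, 12.6% rose in KO as deposited and 2.68% after subtraction. Of 17 B cell genes 8 rose and 0 fell in KO, but after subtraction 1 of 16 rose, Pou2af1, a coactivator of octamer factors (0.348, 0.676 and 1.58 to 5.35, 6.89 and 11.1 CPM). The summed level of the 19 listed B cell genes was 120 to 150 CPM in KO HSC and 175 to 259 CPM in KO MPP1, against 214 to 277 CPM in WT. After subtraction the KO sums overlapped, at 75.8 to 104.9 CPM in HSC and 82.2 to 169.1 CPM in MPP1. Cd79a, a signalling chain of the B cell receptor, had no count in KO HSC and 2.67, 2.01 and 0.877 CPM in KO MPP1. Ebf1 and Pax5, the factors that commit cells to the B lineage, were called higher as deposited (log2 fold change 2.00 and 1.49) but not after subtraction (adjusted p = 0.156 and 0.444), and background made up 68.7 and 81.7% of their counts in KO MPP1. Of 18 T and NK cell genes 5 rose and 0 fell, and 3 of 15 after subtraction: Bcl11b, a T cell commitment factor (0.697, 5.07 and 0.632 to 39.1, 34.4 and 44.7 CPM), Gata3, and Thy1, a T cell and progenitor surface protein (2.09, 1.01 and 1.58 to 6.02, 14.9 and 10.2 CPM). The summed level of the 21 listed T and NK cell genes was 82.2 to 85.3 CPM in KO HSC and 185 to 228 CPM in KO MPP1, against 134 to 147 CPM in WT HSC and 102 to 113 CPM in WT MPP1. After subtraction it was 68.0 to 74.4 CPM in KO HSC and 176 to 227 CPM in KO MPP1, so that on either scale every KO MPP1 library was above every KO HSC library. The part of other cell types in these rises was not tested.

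Mpo rose in WT and was not called in KO. Mpo, the peroxidase of granules and the classic gene of myeloid priming, read 3.48, 7.43 and 4.11 CPM in KO HSC and 5.01, 6.03 and 4.38 CPM in KO MPP1 (log2 fold change 0.04, SE 0.27, adjusted p = 0.946). In WT it rose from 16.3, 8.75 and 9.43 to 145, 141 and 109 CPM (log2 fold change 3.51, SE 0.15, adjusted p = 7.03e-21). The KO groups overlapped, the WT groups did not, and the difference was called (interaction -3.47, SE 0.32, adjusted p = 8.41e-11, and 2.60e-06 after subtraction). Elane, neutrophil elastase, read 0 to 2.63 CPM in the 6 KO libraries (adjusted p = 0.184), rose in WT (log2 fold change 2.81, adjusted p = 2.37e-04), and had no interaction call (adjusted p = 0.651). Several myeloid receptors rose in KO. Of 23 genes in the list of granule proteins and myeloid receptors 11 rose and 1 fell in KO (median 0.82), and 7 and 0 after subtraction, against 5 and 0 in WT. Of those 5, 2 rose in KO and 3 were not called.

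Csf3r, the receptor for G-CSF, rose from 54.7, 57.4 and 70.4 to 124, 138 and 140.0 CPM in KO (log2 fold change 1.14, SE 0.13, adjusted p = 5.95e-09) and read 133 to 156 CPM in the 6 WT libraries (interaction 1.04, SE 0.18, adjusted p = 6.20e-05). Csf2rb, the shared chain of the receptors for GM-CSF, interleukin 3 and interleukin 5, rose by 1.20 on the log2 scale in KO, with 0.25 in WT (interaction 0.95, SE 0.22, adjusted p = 0.00287), although its near copy Csf2rb2 makes this value uncertain. Plac8, a small protein of early myeloid and lymphoid progenitors, rose by 1.94 in KO and 0.95 in WT on the log2 scale. Clec12a, a myeloid lectin, rose from 0.697, 2.03 and 0 to 12.03, 9.47 and 11.98 CPM in KO. Ccl9, a chemokine, rose from 5.92, 4.05 and 4.74 to 39.8, 33.3 and 34.8 CPM in KO and read 0.286 to 1.71 CPM in the 6 WT libraries. Calr, the chaperone calreticulin, was the 1 that fell (log2 fold change -0.22), which was not called after subtraction (adjusted p = 0.875) or when any 1 KO library was left out (adjusted p = 0.0613 to 0.186).

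Of 15 myeloid transcription factors 3 rose and 2 fell in KO, and 2 and 1 of 14 after subtraction. Over all genes, 12.6% rose and 7.49% fell as deposited, and 2.68% rose and 2.66% fell after subtraction. Irf8, the factor of monocyte and dendritic cell fate, rose by 1.67 on the log2 scale (adjusted p = 0.00183). Gfi1, a repressor in granulocytes, rose by 1.71 and Runx2, a relative of Runx1, by 0.23 on that scale, of which Gfi1 was not called after subtraction (adjusted p = 0.29). Leaving out 1 library ended the call of Gfi1 for each KO HSC library and KO MPP1 replicate 1 (adjusted p = 0.0719 to 0.150), and that of Runx2 for KO HSC replicate 1 and KO MPP1 replicate 3 (adjusted p = 0.108 and 0.100). Zeb2, a factor of stem cell exit and dendritic cells, fell from 525, 613 and 569 to 173, 175 and 212 CPM (log2 fold change -1.61, SE 0.10, adjusted p = 4.82e-17), with a log2 fold change of -0.25 in WT (interaction -1.36, SE 0.14, adjusted p = 5.25e-10). Mef2c, a factor of lymphoid and myeloid progenitors, fell by 0.59 on the log2 scale, and not after subtraction (adjusted p = 0.0786). Among 17 genes of mature innate cells 6 rose and 1 fell, and 0 of 16 were called in either direction after subtraction. Their summed level was 49.8 to 72.0 CPM in KO HSC and 79.80 to 82.96 CPM in KO MPP1. After subtraction these sums overlapped, at 37.9 to 56.8 CPM in KO HSC and 55.3 to 62.5 CPM in KO MPP1. Of 16 mast cell, basophil and eosinophil genes 4 rose and 0 fell, and 2 after subtraction, Il1rl1 and Lmo4. The summed level of the list after subtraction, Il1rl1 included, was 122 to 174 CPM in KO HSC and 396 to 457 CPM in KO MPP1. In WT it was 221 to 233 CPM in HSC and 311 to 354 CPM in MPP1. Of 18 stroma and endothelium genes 9 rose and 0 fell, and 2 after subtraction, Stab2 and Pecam1. The summed level of the list was 188 to 279 CPM in KO HSC and 448 to 634 CPM in KO MPP1. After subtraction it was 146 to 234 CPM in KO HSC and 396 to 605 CPM in KO MPP1, still without overlap. In WT it was then 344 to 416 CPM in HSC and 388 to 472 CPM in MPP1. Cxcl12, a defining stromal chemokine, had no count in KO HSC and 11.7, 17.8 and 11.98 CPM in KO MPP1 (adjusted p = 0.0549 after subtraction). The part of such cells in the results was not tested.

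Most megakaryocyte genes fell in KO. Of 22 megakaryocyte and platelet genes 16 fell and 1 rose in KO (median -1.47), and 12 and 0 of 20 after subtraction, against 10 and 1 in WT. Of the 10 WT falls, 9 were found in KO. Their summed level was 5498 to 5865 CPM in KO HSC and 2481 to 2631 CPM in KO MPP1, against 3102 to 3344 and 1904 to 2020 CPM in WT. Itga2b read 49.8, 61.1 and 46.4 CPM in KO HSC and 11.03, 8.04 and 4.09 CPM in KO MPP1. Treml1, a receptor of platelet granules, read 26.1, 19.3 and 31.6 CPM in KO HSC and 0, 3.16 and 1.46 CPM in KO MPP1. Their log2 fold changes were -2.77 and -3.99, and Treml1 fell in WT as well (log2 fold change -3.05). Zfpm1 (Fog1), the partner of Gata1, fell from 652, 526 and 581 to 157, 156 and 157 CPM (log2 fold change -1.90, SE 0.13, adjusted p = 1.08e-15). The fall in WT was smaller (log2 fold change -0.93, interaction -0.97, SE 0.17, adjusted p = 1.08e-04). Plek, a kinase substrate of platelets, fell by 1.38 on the log2 scale in KO and was not called in WT (log2 fold change 0.45, interaction -1.83, SE 0.26, adjusted p = 1.44e-06). Thbs1, a matrix glycoprotein of platelets, was the 1 that rose (log2 fold change 1.90) and was not called after subtraction (adjusted p = 0.213) or without KO HSC replicate 1 (adjusted p = 0.0616).

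Of 28 erythroid genes 19 rose and 2 fell in WT, and 7 rose and 8 fell in KO, where 4 rose and 6 fell after subtraction. Of the 19 WT rises, 6 were found in KO, 4 fell in KO and 9 were not called. The interaction was negative for 14 genes and positive for 0, and for 10 and 0 after subtraction. The summed level of the 30 listed genes fell from between 1540 and 1754 CPM in KO HSC to between 904 and 921 CPM in KO MPP1, and in WT went from between 1175 and 1269 to between 2405 and 2514 CPM. Gata1, the master factor of red cells and megakaryocytes, read 38.7, 41.6 and 26.5 CPM in KO HSC and 4.68, 0.574 and 3.51 CPM in KO MPP1 (log2 fold change -3.61, SE 0.53, adjusted p = 1.32e-06). In WT it rose from 3.05, 5.84 and 12.3 to 24.4, 21.4 and 23.8 CPM (log2 fold change 1.72, adjusted p = 0.0277), without overlap in WT (interaction -5.33, SE 0.71, adjusted p = 5.48e-07, and 0.00439 after subtraction). Epor, the erythropoietin receptor, read 15.7, 29.7 and 24.96 CPM in KO HSC and 2.01, 3.73 and 1.75 CPM in KO MPP1, against 8.87, 2.65 and 3.71 CPM in WT HSC and 19.7, 27.9 and 20.999 CPM in WT MPP1 (log2 fold change -3.21 and 2.17, interaction -5.37, SE 0.77, adjusted p = 2.15e-06). It moved in opposite directions in the 2 genotypes, as Gata1 did.

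Gfi1b, a repressor needed for red cells and platelets, fell from 254, 276 and 225 to 50.1, 72.3 and 42.97 CPM in KO (log2 fold change -2.19, SE 0.19, adjusted p = 1.74e-12), with a log2 fold change of -0.01 in WT (interaction -2.17, SE 0.26, adjusted p = 2.90e-08). Hemgn, a nuclear protein of erythroid progenitors, fell by 1.85 on the log2 scale in KO, with 0.76 in WT (interaction adjusted p = 6.82e-07). Slc4a1, the band 3 anion exchanger of the red cell membrane, fell by 1.25 in KO and rose by 1.06 in WT on the log2 scale (interaction adjusted p = 1.89e-07). Aqp1, a water channel of red cells, fell by 1.02 in KO and rose by 2.27 in WT on that scale (interaction adjusted p = 4.86e-07), the fall not being called after subtraction (adjusted p = 0.171) or without KO HSC replicate 1, KO MPP1 replicate 1 or KO MPP1 replicate 2 (adjusted p = 0.0681 to 0.0834). The beta globin gene Hbb-bs read 20.9, 14.9 and 18.3 CPM in KO HSC and 20.4, 20.1 and 16.1 CPM in KO MPP1, and 35.2, 44.3 and 43.4 CPM in WT HSC against 153, 145 and 149.5 CPM in WT MPP1 (interaction -1.80, SE 0.26, adjusted p = 2.63e-06). Its KO groups overlapped. Globin genes are near-identical copies, so their separate values are uncertain.

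Other red cell genes rose in both genotypes. Ermap, an erythroid surface protein, read 5.58, 2.70 and 0.316 CPM in KO HSC and 26.7, 23.5 and 20.2 CPM in KO MPP1 (log2 fold change 3.05, SE 0.38, adjusted p = 4.97e-08), and 19.7, 18.04 and 19.7 against 184, 198 and 204 CPM in WT (log2 fold change 3.35, SE 0.28, adjusted p = 8.40e-12). The log2 steps differed by -0.30 (SE 0.53, adjusted p = 0.799), while the KO levels were below the WT levels of the same population. Car1, carbonic anhydrase 1, rose from 4.88, 4.73 and 4.11 to 22.4, 20.4 and 15.2 CPM in KO and from 28.8, 26.3 and 20.6 to 221, 189 and 219.5 CPM in WT (interaction -0.98, SE 0.34, adjusted p = 0.0593). Kel, the Kell blood group protein, and Sptb, the beta chain of erythroid spectrin, rose by 2.51 and 1.76 in KO and by 3.40 and 2.22 in WT on the log2 scale, with interaction adjusted p = 0.469 and 0.48. None of Ermap, Car1, Kel and Sptb had an interaction call.

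The promoters of Epor, which fell in KO, and Kel, which rose in both genotypes, are shown because both hold a match to AGATAA, a form of the motif bound by Gata factors. Both are RefSeq sequences (build GRCm38.p6, minus strand) from 250 bases before the gene start to 30 after it, 5′ to 3′, with the matches in capitals. Epor lies at chr9:21963547-21963826 and Kel at chr6:41704296-41704575.
Epor: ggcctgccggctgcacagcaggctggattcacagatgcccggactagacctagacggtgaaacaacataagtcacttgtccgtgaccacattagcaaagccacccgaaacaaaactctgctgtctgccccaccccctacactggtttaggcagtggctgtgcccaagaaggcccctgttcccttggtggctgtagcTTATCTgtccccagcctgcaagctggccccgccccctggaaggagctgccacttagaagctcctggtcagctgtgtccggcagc
Kel: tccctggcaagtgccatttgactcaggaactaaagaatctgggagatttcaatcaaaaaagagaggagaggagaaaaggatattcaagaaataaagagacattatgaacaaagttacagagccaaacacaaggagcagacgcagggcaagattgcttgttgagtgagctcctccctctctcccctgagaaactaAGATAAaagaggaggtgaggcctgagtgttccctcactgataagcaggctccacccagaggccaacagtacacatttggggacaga
AGATAA or its reverse complement TTATCT was found in 6 of the 20 tested erythroid genes with a sequence (30%) and in 3 of 14 megakaryocyte genes (21.4%), against 12.2% of the 27025 genes in the table. The promoter of Hemgn, which also fell in KO, held neither string. Other forms of the motif were not searched, and 1 of them, TGATAA, is present in the promoters of Hemgn and Kel, unmarked. A match is a string of letters and not a measured binding site, and the genes and strings shown were chosen after matches had been seen.

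Cell division genes fell in KO, and those that were called in WT rose there. Of 31 genes of G2 and mitosis 22 fell and 0 rose in KO (median log2 fold change -1.02), and 14 and 0 after subtraction, against 0 falls and 6 rises in WT. Of those 6, 5 fell in KO, and the interaction was negative for 20 of the 31 genes and positive for 0. Mki67, the Ki-67 antigen of cycling cells, read 1229, 1195 and 1222 CPM in KO HSC and 555, 554 and 591 CPM in KO MPP1 (log2 fold change -1.10, SE 0.07, adjusted p = 4.35e-17). In WT it read 505, 432 and 473 CPM in HSC and 708, 670.1 and 714 CPM in MPP1 (log2 fold change 0.57, SE 0.07, adjusted p = 3.79e-08). The groups did not overlap in either genotype, KO HSC being the highest of the 4 (interaction -1.67, SE 0.09, adjusted p = 2.10e-17, and 3.31e-10 after subtraction). Plk1, a mitotic kinase, read 144, 153 and 153 CPM in KO HSC and 57.2, 67.5 and 70.7 CPM in KO MPP1, and 49.6, 27.3 and 40.6 CPM in WT HSC against 90.9, 101 and 96.3 CPM in WT MPP1 (log2 fold change -1.20 and 1.30). Ccna2, cyclin A2, fell from 53.3, 53.4 and 73.6 to 21.4, 16.9 and 17.2 CPM in KO and rose from 16.1, 18.8 and 14.3 to 43.2, 49.3 and 28.3 CPM in WT. Hmmr, a spindle protein, showed the same opposite directions (log2 fold change -1.53 in KO and 1.30 in WT). The interaction was called for all 3 (adjusted p = 3.04e-11, 2.08e-08 and 6.35e-07).

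Foxm1, the transcription factor of mitotic genes, fell from 159, 177 and 153 to 46.8, 41.3 and 50.9 CPM in KO (log2 fold change -1.81, SE 0.16, adjusted p = 3.78e-12) and did not pass the test in WT (log2 fold change -0.08, adjusted p = 0.971). Ckap2l and Kif11, proteins of the spindle, fell with log2 fold changes of -2.37 and -1.43 in KO, and Ube2c, the ubiquitin enzyme that drives exit from mitosis, with -2.10. In WT the values were 0.29, 0.38 and 0.11, and none was called. The interaction was called for Foxm1, Ckap2l, Kif11 and Ube2c (adjusted p = 2.09e-07, 1.60e-08, 1.06e-07 and 3.93e-05). The summed level of the 32 listed genes was 2990 to 3148 CPM in KO HSC and 1413 to 1458 CPM in KO MPP1, against 1240 to 1390 and 1742 to 1820 CPM in WT. Every KO HSC library was above every WT library, and as deposited every KO MPP1 library was above the WT HSC and below the WT MPP1 libraries. After subtraction the sums were 1486 to 1545 CPM in KO MPP1 and 1507 to 1762 CPM in WT HSC, which overlapped.

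DNA replication genes showed the same directions. Of 34 S phase genes 22 fell and 0 rose in KO (median -0.79), and 9 of 33 and 0 after subtraction, against 0 and 6 in WT. Of the 6 WT rises, 4 fell in KO, and the interaction was negative for 20 and positive for 0 as deposited, and for 10 and 0 after subtraction. Pola1, the catalytic subunit of the priming polymerase, read 345, 365 and 369.6 CPM in KO HSC and 201, 166 and 205 CPM in KO MPP1 (log2 fold change -0.92, SE 0.10, adjusted p = 2.34e-09), and rose by 0.77 on the log2 scale in WT. Tyms, thymidylate synthase, read 213, 183 and 157 CPM in KO HSC and 37.1, 54.5 and 56.1 CPM in KO MPP1 (log2 fold change -1.90, SE 0.22, adjusted p = 8.46e-09), with a log2 fold change of -0.32 in WT. For both genes the KO groups did not overlap, and the interaction was called (adjusted p = 8.88e-12 and 3.54e-04). Mcm5, a subunit of the replicative helicase, Pole, a leading strand polymerase, and Lig1, the ligase of Okazaki fragments, fell with log2 fold changes of -0.99, -1.02 and -0.99. In WT the values were 0.43, -0.01 and 0.41, and none was called. The summed level of the 34 genes was 2820 to 3218 CPM in KO HSC and 1616 to 1729 CPM in KO MPP1, against 1327 to 1426 and 1788 to 1867 CPM in WT.

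Of 19 genes for G1 cyclins, their kinases and inhibitors 5 fell and 0 rose in KO, and 3 and 1 after subtraction. Cdk6, the kinase that releases stem cells from quiescence, fell from 1807, 1868 and 1683 to 1032, 1096 and 1038 CPM in KO (log2 fold change -0.76, SE 0.06, adjusted p = 7.79e-14) and rose from 650.0, 625 and 707 to 860.3, 846 and 861 CPM in WT (interaction -1.13, SE 0.08, adjusted p = 7.48e-14). Ccnd2, cyclin D2, fell in both (log2 fold change -0.65 and -0.85). E2f3, E2f4 and Rbl1, factors that drive or hold back S phase genes, fell with log2 fold changes of -0.57, -0.79 and -0.96. Of these only Rbl1 was also called after subtraction (adjusted p = 0.0647, 0.0506 and 0.00311).

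**Figure D4:**
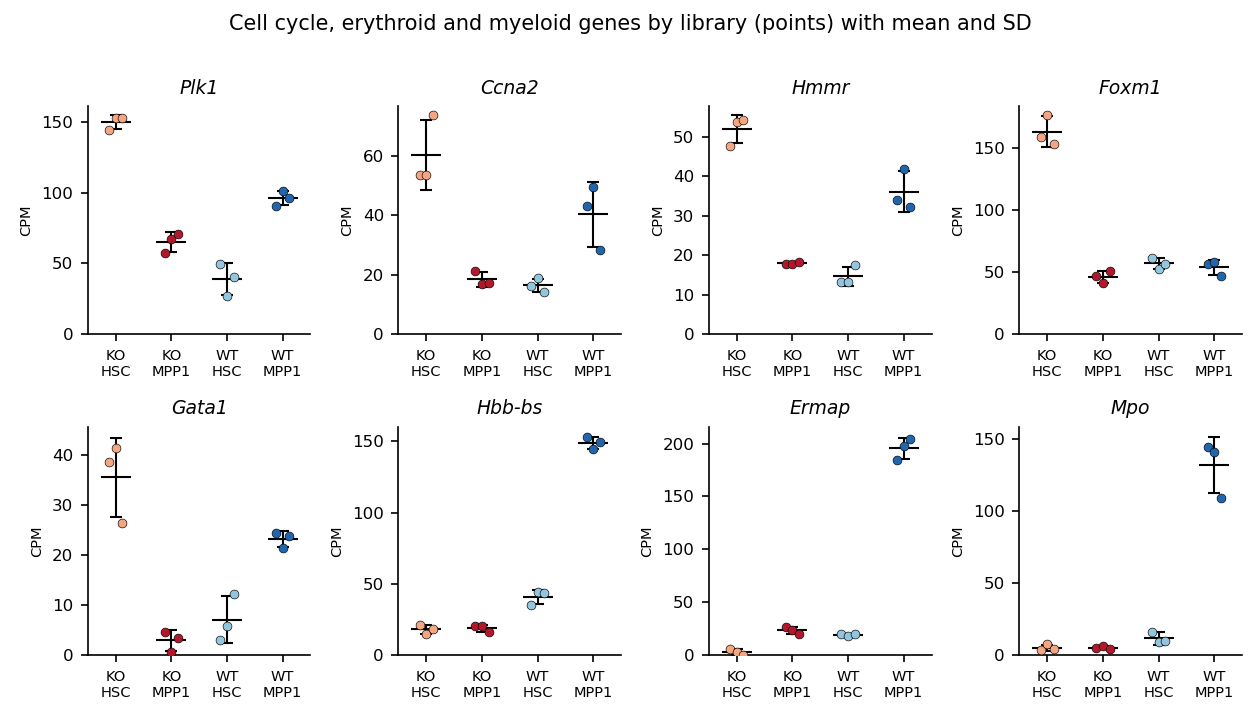
Each panel plots the level of 1 gene in CPM (y axis, from 0) in the 3 libraries of KO HSC, KO MPP1, WT HSC and WT MPP1 (x axis), as points with the mean and SD. Plk1, Ccna2, Hmmr and Gata1 are lower in KO MPP1 and higher in WT MPP1 than in HSC, Foxm1 is highest in KO HSC, Hbb-bs and Mpo are highest in WT MPP1, and Ermap is higher in MPP1 than in HSC in both genotypes.

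The promoters of Mki67, Ckap2l and Kif11 are shown because the mitotic genes fell together. Genes of this group often carry CCAAT boxes and the letters TTTGAA, known as the cell cycle homology region. The sequences are from RefSeq (build GRCm38.p6), 250 bases before to 30 after the gene start, 5′ to 3′ on the strand of the gene, with matches on either strand in capitals. Mki67 lies at chr7:135716350-135716629 (minus strand), Ckap2l at chr2:129297183-129297462 (minus strand) and Kif11 at chr19:37376132-37376411 (plus strand).
Mki67: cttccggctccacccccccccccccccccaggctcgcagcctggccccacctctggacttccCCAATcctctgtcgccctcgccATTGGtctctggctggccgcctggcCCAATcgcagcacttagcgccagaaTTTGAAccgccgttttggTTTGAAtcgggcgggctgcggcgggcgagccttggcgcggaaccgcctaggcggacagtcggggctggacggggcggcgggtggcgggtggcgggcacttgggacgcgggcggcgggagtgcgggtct
Ckap2l: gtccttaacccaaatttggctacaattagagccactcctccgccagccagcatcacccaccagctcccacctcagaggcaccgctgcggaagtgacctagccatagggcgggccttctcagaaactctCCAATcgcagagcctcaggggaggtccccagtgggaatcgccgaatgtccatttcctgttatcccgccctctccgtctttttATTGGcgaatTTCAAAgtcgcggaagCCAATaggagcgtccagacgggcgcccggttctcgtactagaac
Kif11: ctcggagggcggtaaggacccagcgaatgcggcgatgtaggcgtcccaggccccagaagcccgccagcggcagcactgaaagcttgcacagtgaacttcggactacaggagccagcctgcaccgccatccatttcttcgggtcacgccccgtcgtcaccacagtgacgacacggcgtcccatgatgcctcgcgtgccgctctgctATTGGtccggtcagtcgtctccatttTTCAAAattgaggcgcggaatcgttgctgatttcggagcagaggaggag
Of the 31 tested genes 26 had a sequence. CCAAT or ATTGG was found in 21 of them (80.8%), against 39.7% of the 27025 genes in the table, and TTTGAA or TTCAAA in 16 (61.5%), against 19.5%. Both were found in 15 (57.7%), against 8.33%. Of 27 S phase genes with a sequence 17 (63.0%) held the first and 3 (11.1%) the second. Neither string contains the other, and a match is not a measured site. These counts cover the tested members whether or not they fell, so they do not link the strings to the fall in KO.

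Some genes for ribosome production rose in WT and fell in KO before subtraction. Of 34 nucleolar genes 8 fell and 0 rose in KO (median -0.40), but after subtraction only Nop56 fell, and 3 rose in WT. All 3 of these, Npm1, Ncl and Nop58, fell in KO as deposited. Npm1, nucleophosmin, read 902, 869 and 917 CPM in KO HSC and 711, 694 and 633 CPM in KO MPP1 (log2 fold change -0.40, SE 0.07, adjusted p = 2.09e-05, and -0.14 with adjusted p = 0.25 after subtraction). In WT it rose from 418, 395 and 407 to 752, 761 and 738 CPM (log2 fold change 0.88, SE 0.07, adjusted p = 9.30e-13). The difference between the steps held after subtraction (interaction -1.28, SE 0.10, adjusted p = 2.75e-13, and 2.78e-08 after subtraction). Ncl, nucleolin, had log2 fold changes of -0.40 in KO and 0.61 in WT. The KO fall of Nop58, a core protein of small nucleolar RNA particles, was near the threshold (log2 fold change -0.43, SE 0.15, adjusted p = 0.0426) and was not called after subtraction (adjusted p = 0.525), with median-of-ratios size factors (0.103), with no filter (0.087), at 20 CPM (0.25), with DESeq2 (0.0807), with only the libraries compared (0.0909) or without any 1 of KO HSC replicates 2 and 3 and KO MPP1 replicates 1 and 2 (adjusted p = 0.13 to 0.169). Of 73 cytosolic ribosomal protein genes 10 fell and 0 rose in KO (median -0.23, near the -0.22 of genes above 64 CPM), and 4 and 1 of 69 after subtraction, whereas 12 rose and 0 fell in WT. Of 90 nuclear genes of oxidative phosphorylation 4 fell (0 with median-of-ratios size factors) and 1 rose in KO, and 0 after subtraction, against 6 rises and 0 falls in WT. Of 11 mitochondrially encoded genes 6 fell and 0 rose in KO, and 1 after subtraction, mt-Cytb (log2 fold change -0.58), against 4 rises in WT, all of which fell in KO as deposited. The median KO steps of cytosolic ribosomal protein genes (-0.23) and nuclear oxidative phosphorylation genes (-0.19) were near the -0.22 of genes above 64 CPM. Those of nucleolar genes (-0.40) and mitochondrially encoded genes (-0.45) were larger falls, and were -0.16 and -0.19 after subtraction. The cause of these small falls was not tested, and their direction is not read here.

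The remaining lists are given as counts. Over all genes, 7.49% fell and 12.6% rose in KO as deposited, and 2.66% fell and 2.68% rose after subtraction. Of 36 P-body genes 5 fell and 1 rose in KO (2 and 1 with median-of-ratios size factors), and 1 and 1 after subtraction. Eif4e, the cap-binding factor, fell from 247, 247 and 268 to 137, 138 and 160.2 CPM (log2 fold change -0.81, SE 0.12, adjusted p = 1.34e-06), and Pan3, of the deadenylase complex, rose by 0.54 in KO and 0.74 in WT on the log2 scale. Of 12 apoptosis regulators 2 fell and 0 rose. Bcl2, the survival factor, read 1264, 1121 and 1189 CPM in KO HSC and 605, 583 and 563 CPM in KO MPP1 (log2 fold change -1.03, SE 0.08, adjusted p = 6.72e-13), and fell by 0.32 on the log2 scale in WT (interaction adjusted p = 4.40e-05, and 0.0586 after subtraction). Bcl2l1 (Bcl-xL), another survival factor, fell with log2 fold changes of -0.83 in KO and -0.67 in WT. Of 25 immediate early genes 3 fell and 2 rose in KO. Egr1, a growth response factor, fell by 1.48 on the log2 scale, and Fosb, a subunit of AP-1, by 0.79. Myc, a driver of growth, fell by 0.60 on that scale, which was not called after subtraction (adjusted p = 0.124). Dusp5, a phosphatase of ERK, rose by 1.67 on the log2 scale in KO and 0.85 in WT.

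Of 35 interferon response genes 2 fell (1 with median-of-ratios size factors) and 0 rose, of 16 MHC genes 4 and 0, of 25 cholesterol genes 3 and 0, and of 26 genes of glycolysis and hypoxia 7 and 1. After subtraction these counts were 1 and 0, 0 and 0, 0 and 0, and 3 and 1. Of 10 Hox cluster genes only Hoxa9 was called, and none of 6 after subtraction.

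**Figure D5:**
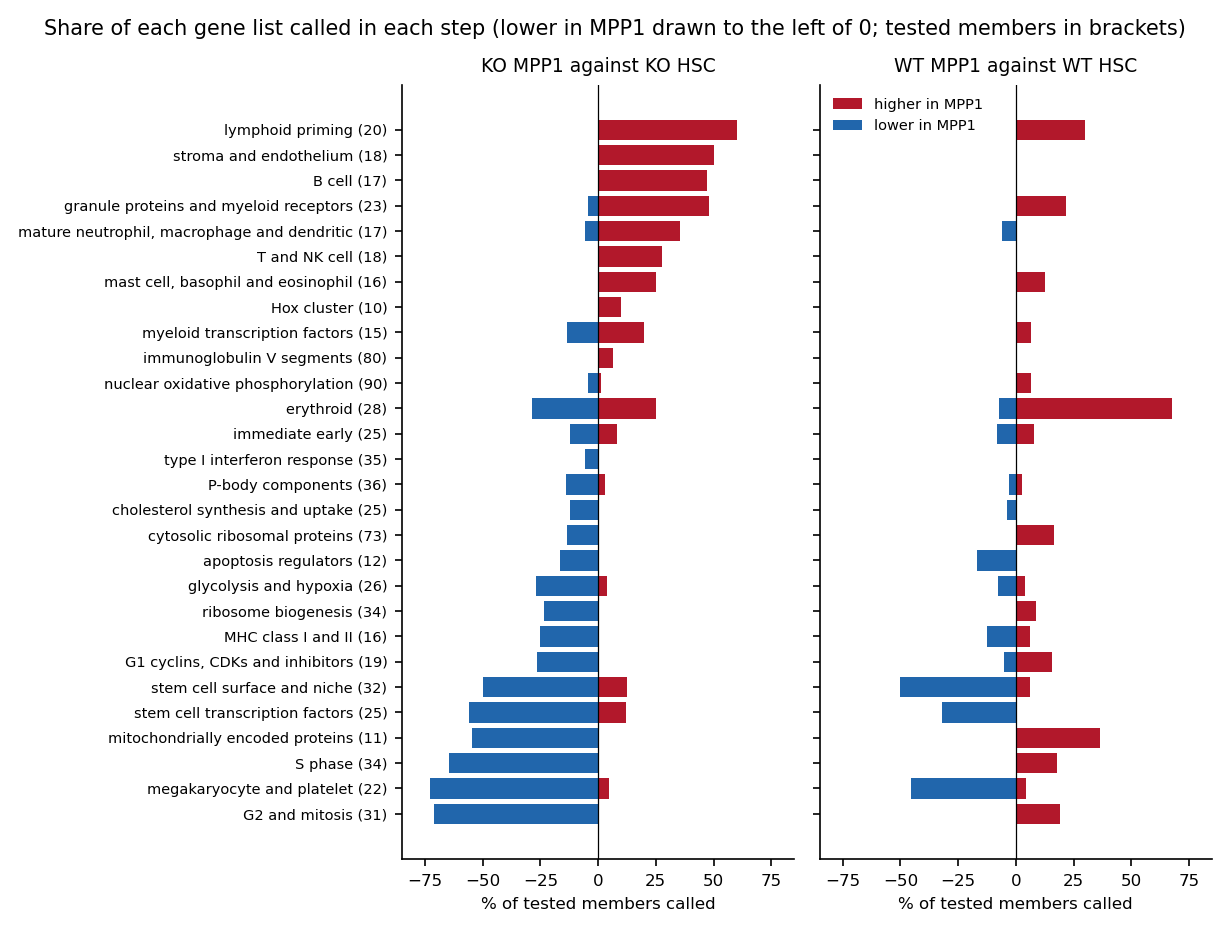
Bars give the share of the tested members of each gene list (rows, number tested in brackets) called higher (right of 0) or lower (left of 0) in MPP1 than in HSC as deposited, in % (x axis), for KO and for WT. Lymphoid priming leads the rises in KO, erythroid genes lead those in WT, and every called S phase and mitosis gene is lower in KO and higher in WT.

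The 12 largest falls in KO were taken from genes of at least 20 CPM in HSC. Their call had to hold after subtraction and their KO groups had not to overlap. They were Slamf1, Ache, Nupr1, Treml1, Olfr417, Vwf, Gata1, Epor, Rbm38, Tuba8, Tgfbr3 and Itga2b. Ache, acetylcholinesterase, which is also expressed in megakaryocytes and red cells, read 115, 147 and 111 CPM in KO HSC and 5.68, 3.16 and 5.26 CPM in KO MPP1, and 11.6, 10.6 and 13.4 CPM in WT HSC against 29.99, 18.2 and 27.998 CPM in WT MPP1. The log2 fold change was -4.72 in KO and 1.09 in WT (adjusted p = 0.0363 in WT, interaction -5.82, SE 0.47, adjusted p = 2.14e-12). Nupr1, a stress-induced nuclear protein, fell in both, from 265, 179.7 and 193 to 7.35, 13.8 and 8.77 CPM in KO and from 164, 148 and 170.3 to 10.3, 16.8 and 9.52 CPM in WT (interaction -0.68, SE 0.45, adjusted p = 0.377). Rbm38, an RNA-binding protein, and Tuba8, an alpha tubulin, also fell in both. Their log2 fold changes were -3.02 in KO and -2.56 in WT, and -2.97 and -2.10. Olfr417, an olfactory receptor gene, read 53.7, 47.97 and 42.02 CPM in KO HSC and 0.669, 3.16 and 6.43 CPM in KO MPP1, and 5.04 to 10.3 CPM in the 6 WT libraries. It supplied 6.26 to 7.60% of the receptor counts behind the background estimate in KO HSC. Without it the subtracted step had 483 rises and 487 falls.

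Ranked by interaction p, the first 8 genes whose KO step was the more negative were Prkg1, Lrmda, Mki67, Runx1, Ces2g, Angpt1, Dach1 and Cdk6. Prkg1, a cGMP-dependent kinase, fell from 1735, 1910 and 1898 to 321, 376 and 414 CPM in KO and went from 1362, 1302 and 1379 to 1183, 1297 and 1250 CPM in WT (interaction -2.20, SE 0.11, adjusted p = 2.92e-19). Angpt1, the ligand of Tek, read 4378, 4607 and 4743 CPM in KO HSC and 2493, 2385 and 2271 CPM in KO MPP1 (log2 fold change -0.94, SE 0.06, adjusted p = 2.04e-17), and its log2 fold change in WT was 0.17 (adjusted p = 0.0734). Dach1, a transcriptional repressor, fell from 1249, 1320 and 1457 to 385, 339 and 354 CPM in KO and had a log2 fold change of -0.17 in WT (adjusted p = 0.468). Lrmda had log2 fold changes of -0.74 in KO and 0.74 in WT, and Ces2g, a carboxylesterase, of -2.25 and 2.19. All 8 kept a negative interaction call after subtraction.

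The 8 with a more positive KO step were Skap1, Arpp21, Il1rl1, Pde7b, Pard3, Cntnap2, Itgb5 and Atp8b4, several of which are long genes with much background. Skap1, an adaptor of T cell adhesion, read 6.97, 17.6 and 15.8 CPM in KO HSC and 172, 171 and 183 CPM in KO MPP1 (log2 fold change 3.70, SE 0.23, adjusted p = 6.24e-17), against 72.9, 60.2 and 84.004 and 68.5, 64.4 and 73.6 CPM in WT. Arpp21, whose RNA marks lymphoid precursors, read 8.71, 2.70 and 6.32 CPM in KO HSC and 115, 119 and 155 CPM in KO MPP1 (log2 fold change 4.45, SE 0.25, adjusted p = 4.19e-18). Background accounted for all counts of both genes in KO HSC and for 18.6 and 14.5% in KO MPP1, and their interaction held after subtraction (adjusted p = 2.00e-07 and 4.51e-06). Atp8b4, a lipid flippase, had log2 fold changes of 2.66 in KO and 0.98 in WT. Pde7b, a phosphodiesterase of cyclic AMP, rose from 34.8, 55.4 and 46.4 to 255, 249 and 258 CPM in KO, with a log2 fold change of -0.01 in WT. Pard3, a cell polarity protein, rose from 22.998, 12.2 and 27.2 to 196, 148 and 172 CPM, with 35.6% background in KO MPP1. Cntnap2, a neuronal adhesion gene, was 97.4% background in KO MPP1, and neither its KO step (adjusted p = 0.24) nor its interaction (adjusted p = 0.389) was called after subtraction.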

How the data were processed

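Sorted marrow cells were profiled by RNA-seq of total RNA (NEBNext Ultra II libraries, per the labels' protocols). The authors deposited 1 table of whole-number counts for 56748 gene identifiers and 24 libraries. The build mm39, SAMtools 1.12 and DESeq2 are named per the submitters' processing notes, and the aligner, counter and strand setting are not given in the sources used here, so reads of overlapping or antisense genes cannot be told apart.

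The deposited counts were scaled by TMM, filtered with filterByExpr and fitted with edgeR 4.0.16 (quasi-likelihood test, R 4.3.3) over 8 group means, with Benjamini-Hochberg adjustment over all 21964 genes tested and a threshold of 0.05. Contrasts were KO MPP1 minus KO HSC, the same step in WT, and their difference. CPM values are counts per 1000000 of the scaled total. The 12 libraries compared held 3095384 to 3667509 counts, so genes under a few CPM rest on few counts. Between any pair of replicates the chi-square per gene was at least 4.25, so no library was a second copy of another.

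For background subtraction, counts per kilobase of gene span over 1770 olfactory and vomeronasal receptor genes were multiplied by each gene's span and removed. Spans came from a GRCm38 annotation matched by identifier (52125 found), although the authors' build is mm39. Rows that differ in span between builds were not treated apart.

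Named genes were the given markers, sorting genes, the 12 largest rises and falls of at least 20 CPM without overlap and with a call after subtraction, the 8 smallest interaction p of each sign, up to 5 called members of each list by p, and members against their list. Predicted genes were passed over. Mpo, Hbb-bs, Mecom, Tal1, Lmo2, Ikzf1, Notch1, Elane, Slc4a1, Aqp1, Kel, Sptb, Plk1, Ccna2, Hmmr, Nop58, Mt1, Cks2, E2f8, Ezh2 and Slc7a8 were chosen after their values were seen. The members, the 29 gene lists and the tests were chosen with earlier results of these data known. Alternatives were other size factors, filters and tools (DESeq2 1.42.0, limma 3.58.1), fewer libraries and a replicate block. Scripts were tested on simulated counts. Promoters are RefSeq sequences matched by symbol. Some genes that the naming rule picked are not reported here.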

Additional observations from a re-analysis of the deposited data

Results flagged for a closer look

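The following 66 genes were taken from those named in this report. Their step from HSC to MPP1 differed between KO and WT by the interaction test (adjusted p below 0.05). Over all 18441 genes tested after subtraction, the step was more positive in KO for 210 and more negative for 352. The kinds of genes below therefore do not stand for all genes. Each value is the log2 fold change in KO minus that in WT. Explanations were not tested.

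A more negative step in KO that was also called after subtraction was found for 40 of these genes. Those of cell division and growth were Cks2 -3.29, Ccna2 -2.99, Hmmr -2.83, Ckap2l -2.66, Plk1 -2.50, E2f8 -2.33, Ube2c -2.21, Kif11 -1.81, Foxm1 -1.73, Pola1 -1.69, Mki67 -1.67, Tyms -1.58, Npm1 -1.28, Cdk6 -1.13 and Ezh2 -1.07. Those of red cells and megakaryocytes were Ache -5.82, Epor -5.37, Gata1 -5.33, Aqp1 -3.29, Hemgn -2.60, Slc4a1 -2.31, Gfi1b -2.17, Vwf -2.11, Plek -1.83, Hbb-bs -1.80 and Zfpm1 -0.97. The others, stem cell factors and Mpo among them, were Mt1 -10.16, Ces2g -4.44, Mpo -3.47, Prkg1 -2.20, Lmo2 -2.18, Dach1 -1.73, Tgfbr3 -1.55, Lrmda -1.47, Zeb2 -1.36, Runx1 -1.17, Angpt1 -1.11, Mecom -0.95, Meis1 -0.73 and Fli1 -0.54.

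A more positive step in KO, also called after subtraction, was found for 19 of these genes. Most of them are lymphoid genes or cytokine receptors, a mix that depends on which genes were named. They were Ikzf3 5.93, Il2ra 5.201, Il1rl1 4.90, Dntt 4.30, Arpp21 4.004, Skap1 3.77, Itgb5 3.67, Il10ra 3.39, Blnk 3.16, Pard3 3.02, Slc7a8 2.73, Pde7b 2.49, Gata3 2.30, Ighm 1.72, Atp8b4 1.68, Notch1 1.67, Flt3 1.47, Csf3r 1.04 and Csf2rb 0.95.

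The call was not made after subtraction for Il7r 4.82, Stab2 4.41, Cntnap2 1.66 and Satb1 1.05, all more positive in KO, or for Slamf1 -2.87, Tal1 -1.21 and Bcl2 -0.70, all more negative.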

How the results depend on the processing

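The KO step had 2757 rises and 1646 falls. Requiring at least 20 CPM gave 1332 and 975, subtracting the background 495 and 490, and doing so without Olfr417 483 and 487, fewer genes being tested in each. Leaving out 1 library gave 2057 to 2335 rises and 1263 to 1383 falls. The WT step had 433 rises (663 with DESeq2, 291 to 337 with 1 library left out) and 402 falls (703 with limma-voom, 628 with only the libraries compared, 262 to 322 with 1 left out, the lowest without WT MPP1 replicate 3). The interaction had 1351 positive and 860 negative calls, 210 and 352 after subtraction, 209 and 348 without Olfr417, and 1002 to 1213 and 662 to 744 with 1 library left out. The share of WT calls found in KO was 44.2%. It was 35.6% at 20 CPM, 36.9% with DESeq2, 39.2% with only the libraries compared, 28.3% after subtraction, 28.2% without Olfr417 and 40.2 to 50.7% with 1 library left out. Beyond the smaller number of genes or libraries, the cause of these moves was not tested.

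Replicate numbers did not pair the samples (correlations of same-numbered libraries from -0.009 to 0.029). A replicate block gave 2676 and 1625 calls in KO, 426 and 403 in WT, 1300 and 853 for the interaction, and a share of 44.5%, and it ended no call of a named gene.

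Of the 132 named genes in the KO step, 132 kept their direction and their side of the threshold under the replicate block and with at least 5 CPM in 3 libraries. Calls were lost for 2 with median-of-ratios size factors, 3 with no filter, 3 of 116 at 20 CPM, 2 with DESeq2, 1 with limma-voom, 4 of 130 with only the libraries compared, 19 after subtraction with or without Olfr417 (besides Calr, whose sign also changed), and 4 to 6 with 1 library left out. The 12 largest rises and 12 largest falls had been chosen for a call after subtraction, and most others for a small p, so these counts do not stand for all genes. Over all genes, 912 of the 2757 rises and 1646 falls held after subtraction. Other than after subtraction or with a library left out, the genes that lost a call were Calr and Nop58 (size factors, no filter, 20 CPM, DESeq2 and only the libraries compared), Ly6a (no filter), Ncl (20 CPM), Aqp1 (limma-voom and only the libraries compared) and Cks2 (only the libraries compared). Of 66 named interaction results, 2 lost the call with limma-voom (Ighm and Satb1), 7 after subtraction and 8 without Olfr417, and 0 did so under the other alternatives, each left-out library included.

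Values near 0 changed sign for genes without a call or with a small fall. Procr gave 0.048 with median-of-ratios size factors, 0.14 at 20 CPM, 0.047 with DESeq2, 0.022 with only the libraries compared, 0.22 and 0.23 after subtraction with and without Olfr417, and -0.19 to 0.18 with 1 library left out. Calr gave 0.040 after subtraction and 0.044 without Olfr417. With 1 library left out, Mpo gave -0.15 to 0.43 and Hbb-bs -0.058 to 0.18. The median of all genes in the KO step was 0.15 with TMM and 0.23 with median-of-ratios size factors. At this depth, genes under a few CPM could not show small differences.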

Other observations

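Genes outside the lists also moved in opposite directions in the 2 genotypes, and those named here were chosen after their values were seen. Cks2, a cofactor of cyclin-dependent kinases, read 16.4, 21.96 and 10.4 CPM in KO HSC and 8.02, 6.89 and 2.92 CPM in KO MPP1, and 6.37, 2.92 and 7.14 CPM in WT HSC against 23.8, 16.8 and 18.2 CPM in WT MPP1 (log2 fold change -1.45 in KO and 1.84 in WT, interaction adjusted p = 1.29e-04). Its KO fall was not called after subtraction (edgeR adjusted p = 0.12), with only the libraries compared (0.054) or without KO HSC replicate 2 or KO MPP1 replicate 3 (0.0902 and 0.101). E2f8, a repressor of S phase genes, fell from 138, 109 and 133 to 31.4, 43.6 and 45.6 CPM in KO and rose from 39.6, 39.8 and 49.7 to 69.1, 88.4 and 48.4 CPM in WT. Ezh2, the methyltransferase of the Polycomb complex, had log2 fold changes of -0.58 in KO and 0.49 in WT (interaction adjusted p = 9.04e-07). In each of these the KO groups did not overlap.

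Mt1, a metallothionein, read 6.27, 4.73 and 9.16 CPM in KO HSC, 0.669, 0 and 0.292 CPM in KO MPP1, 0, 0 and 0.286 CPM in WT HSC and 10.6, 1.14 and 11.2 CPM in WT MPP1 (interaction adjusted p = 3.65e-06, on few counts). Only 6 genes fell in WT and rose in KO: Airn, Dlg2, Efcab6, Osbpl5, Plxna4 and Slc7a8. Slc7a8, a transporter of neutral amino acids, read 59.6, 45.6 and 38.5 CPM in KO HSC and 175, 207 and 223 CPM in KO MPP1, and 92.5, 74.01 and 82.9 CPM in WT HSC against 70.6, 47.9 and 39.8 CPM in WT MPP1 (interaction 2.73, SE 0.28, adjusted p = 9.54e-10, and 3.19e-06 after subtraction).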
